A study of Mus musculus with 4 samples.

Results

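The *Kit* locus was examined through the H3K27ac peaks that overlap, by at least 1 bp, the stretch of chromosome 5 from 75.83 to 76.08 Mb of mm9, 250 kb that hold the *Kit* gene body and its far upstream enhancer. Of 151551 peaks in 6 lists, 64 met this rule. H3K27ac, the acetylation of histone H3 at lysine 27, was read out by ChIP-seq: an antibody to the mark pulls down the chromatin that carries it, and the DNA recovered is sequenced. The authors deposited 1 peak list for each of 2 replicates of each cell line and 1 list for both replicates together, here called pooled. G1E cells are an immortalized line of strain 129 that was derived from mouse ES cells lacking Gata1 and serves as a model of erythroid progenitors, and they were left untreated. G1E-ER4 cells are G1E cells transduced with a virus that expresses GATA1-ER, a GATA1 protein activated by estradiol, and they received estradiol at 10 nM over 24 h (G1E-ER4+E2). Both groups thus lack the endogenous Gata1 gene, and each is a single line. Cell line, virus and estradiol differ together between the groups and cannot be told apart, and untreated G1E-ER4 cells were not analysed here. The labels do not say that the replicates came from separate cultures, so the p-values given here concern only these samples.

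*Kit* encodes the receptor tyrosine kinase for stem cell factor, which hematopoietic stem cells and erythroid progenitors need for survival and proliferation. During erythroid maturation GATA1 takes over sites held by GATA2, the related factor of progenitors, and *Kit* is a textbook gene that is turned off in this exchange. The gene is read toward higher coordinates, and a distal enhancer lies far upstream of its promoter. H3K27ac marks active promoters and enhancers, and it can spread over long domains at highly active genes of a cell type. In the RefSeq table the neighbouring protein-coding genes are *Pdgfra* on the upstream side and *Kdr* on the downstream side, both of which also encode receptor tyrosine kinases. Expression was not measured in these samples.

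The promoter is shown because it is the end of the locus where transcription starts. RefSeq places the start used here directly after chr5:75574737-75574986 on the plus strand of GRCm38.p6, another build than that of the peaks, so it was not placed on the peak borders. The 250 bases before the start are printed in lower case with the match to the GC box (GGGCGG, either strand) in capitals.

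Kit: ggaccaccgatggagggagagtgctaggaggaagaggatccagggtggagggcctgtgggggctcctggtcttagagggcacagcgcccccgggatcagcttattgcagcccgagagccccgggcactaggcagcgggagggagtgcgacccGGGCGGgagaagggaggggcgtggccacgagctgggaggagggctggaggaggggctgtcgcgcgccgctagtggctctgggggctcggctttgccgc

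The window had a G+C content of 70.8%, higher than that of 91.7% of the 32851 RefSeq promoter windows of the same length. It held 1 GC box, beginning at -98 from the start, a motif present in 32.7% of the windows. No match to the GATA motif (GATA with A or T before it and A or G after it) was present on either strand, against 26.5% of all windows with at least 1. The E-box CANNTG was also not present, against 66.2% of all windows. These counts describe the letters of this window only.

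Across the region, peaks covered less sequence in G1E-ER4+E2 cells than in G1E cells, and what they still covered lay mostly between 75968801 and 76038400. Replicates 1 and 2 of G1E had peaks over 142.2 kb and 129.6 kb. Replicates 1 and 2 of G1E-ER4+E2 had peaks over 52 kb and 43.4 kb. The groups did not overlap, as was the case in the same direction for 31.1% of 250 kb stretches of the genome and in the other direction for 45.8%. The mean was 135.9 ± 8.91 kb (SD, n = 2) in G1E and 47.7 ± 6.08 kb (SD, n = 2) in G1E-ER4+E2, a difference of -88.2 kb and a 2.85-fold larger covered length in G1E. The two-sided exact permutation test gave p = 0.333, which is the smallest p that 2 samples against 2 allow. The same p and the same adjusted value, 0.333 by the Benjamini-Hochberg method over the 5 comparisons of covered length, were obtained for the region and for each of the 4 parts described next. In the pooled lists 159.2 kb were covered in G1E and 66 kb in G1E-ER4+E2.

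**Figure D1:**
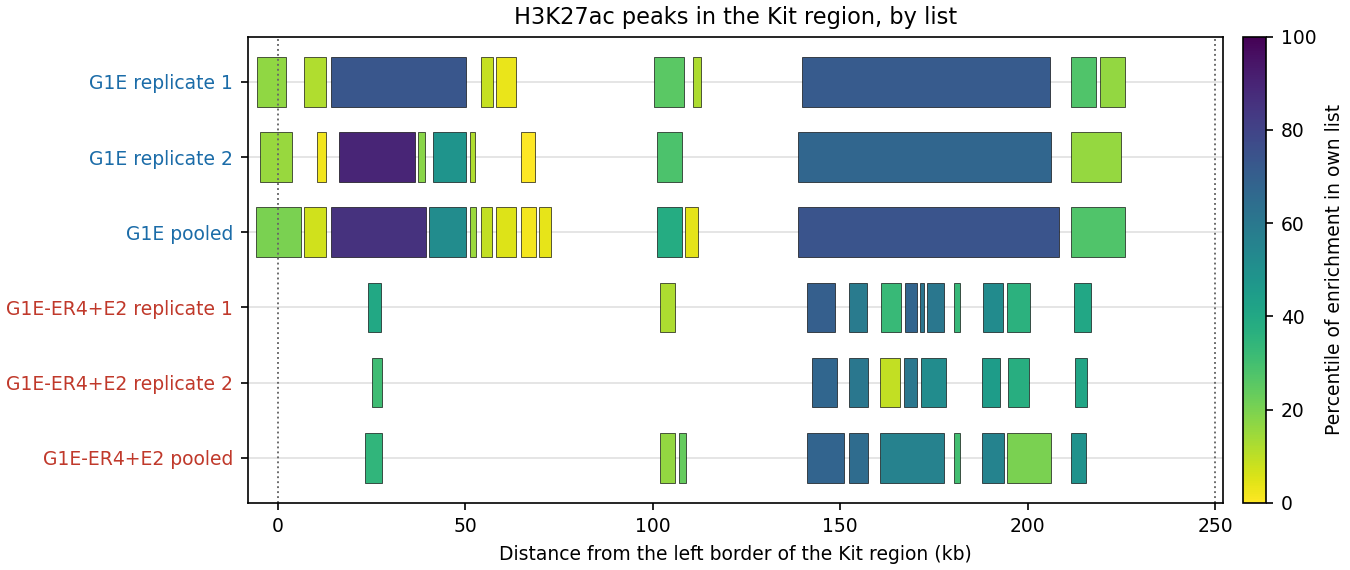
Peaks of the *Kit* region in the 6 lists, drawn to scale along the distance in kb from the left border of the region (dotted lines mark both borders), with each peak coloured by the percentile of its enrichment among the peaks of its own list. The G1E lists show a wide peak or group of peaks in the far upstream part and 1 domain of 66.2 to 69.6 kb in the wide domain, where the G1E-ER4+E2 lists show 1 narrow upstream peak and 6 to 9 separate pieces.

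Joining peaks of any list that lay within 2 kb of each other divided the region into 4 parts. They are called the far upstream group (75824201 to 75903000), the middle group (75930401 to 75942800), the wide domain (75968801 to 76038400) and the right peak group (76041401 to 76055800). The names follow position and width only. No mm9 gene models were used, so where the gene ends among these parts is not given here. Enrichment, the ratio that the authors' peak caller gave each peak, was not compared between lists. It is given with its percentile, the share of the peaks in the same list with a lower enrichment.

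The far upstream group, which holds the strongest peaks of the region in G1E cells, lost most of its covered length. Cut at the left border of the region, it was covered over 52.6 kb in G1E replicate 1 and 42.2 kb in replicate 2, but over 3.4 kb and 2.6 kb in G1E-ER4+E2 replicates 1 and 2. The means were 47.4 ± 7.35 kb and 3 ± 0.566 kb (SD, n = 2 each), a 15.8-fold difference, larger than the spread between replicates. With the peaks that cross the border taken whole, the G1E replicates were covered over 58.2 kb and 47 kb, and the difference was 17.5-fold. At its center, G1E replicate 1 had a single peak of 36 kb from 75844201 to 75880200, with an enrichment of 11.7 (percentile 73.1). G1E replicate 2 had a peak of 20.2 kb from 75846401 to 75866600 with an enrichment of 21.2 (percentile 89.8, the highest of the region in any list), followed by peaks of 1.8 kb and 8.8 kb up to 75880200. The right border at 75880200 was thus the same in both replicates. In the pooled G1E list the central peak was 25.4 kb wide with an enrichment of 14.3 (percentile 85.6).

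In G1E-ER4+E2 cells 1 peak was left in this group in each list. It ran from 75854201 to 75857600 in replicate 1 (enrichment 2.61, percentile 40), from 75855201 to 75857800 in replicate 2 (2.72, percentile 31.2) and from 75853201 to 75857800 in the pooled list (2.29, percentile 34.5). These peaks lay inside the central G1E peak of both replicates, and 18.1% of the pooled G1E central peak was covered by the pooled G1E-ER4+E2 list. The other 8 pooled G1E peaks of the far upstream group, 1.8 to 12 kb wide, had no bp in a pooled G1E-ER4+E2 peak. They included the peak from 75870401 to 75880200, whose enrichment of 6.15 was at percentile 51.8 of its list. The other 7 had enrichments of 1.48 to 2.59, at percentiles 1.76 to 20.1.

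The middle group was small in G1E and differed between the G1E-ER4+E2 replicates. G1E replicate 1 had peaks of 7.8 kb and 2.2 kb, and replicate 2 had 1 peak of 6.8 kb from 75931001 to 75937800 with an enrichment of 4.17 (percentile 28.5). G1E-ER4+E2 replicate 1 had a 4 kb peak from 75932001 to 75936000 with an enrichment of 1.89 (percentile 12.3), and replicate 2 had none. The covered length was 8.4 ± 2.26 kb and 2 ± 2.83 kb (SD, n = 2 each), and in G1E-ER4+E2 the spread between replicates was larger than the mean. The pooled G1E-ER4+E2 list added a 1.8 kb peak from 75937001 to 75938800.

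The wide domain kept more of its covered length than the other parts did, but not in 1 piece. In G1E cells it was a single peak in each list. It ran from 75969801 to 76036000 (66.2 kb, enrichment 11.3, percentile 71.8) in replicate 1 and from 75968801 to 76036200 (67.4 kb, enrichment 12.3, percentile 67.5) in replicate 2. Of all peaks in the list, 13 were wider in replicate 1 and 7 in replicate 2, so this was among the widest H3K27ac domains called in these cells. The left borders of the replicates were 1000 bp apart and the right borders 200 bp apart.

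In G1E-ER4+E2 cells the same stretch held 9 peaks in replicate 1, 7 in replicate 2 and 6 in the pooled list. The pieces were 1 to 7.6 kb wide in replicate 1 (median 5 kb) and 3.4 to 6.8 kb in replicate 2 (median 5.4 kb). In the pooled list they were wider, 1.8 to 17 kb (median 7.9 kb). Together the pieces of replicates 1 and 2 covered 40 kb and 37.6 kb, against 66.2 kb and 67.4 kb in G1E. The means were 66.8 ± 0.849 kb in G1E and 38.8 ± 1.7 kb in G1E-ER4+E2 (SD, n = 2 each), a difference of -28 kb and 1.72-fold. In the pooled lists 74.1% of the G1E domain stayed covered. Every G1E-ER4+E2 piece of both replicates lay inside the G1E domain of both replicates.

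The leftmost piece had the highest enrichment of the locus in both G1E-ER4+E2 replicates. It ran from 75971001 to 75978600 in replicate 1 (enrichment 4.55, percentile 70.3) and from 75972401 to 75979000 in replicate 2 (5.38, percentile 67.5). The next piece, from 75982201 to 75987200 and from 75982401 to 75987400, had enrichments of 3.45 (percentile 58.8) and 4.49 (percentile 60.5). The piece that started at 75990801 in replicate 1 and 75990601 in replicate 2 was weaker than its neighbours in both, at 2.40 (percentile 32.5) and 1.97 (percentile 9.26). It was followed by a narrow one ending at 76000400 in both replicates, with enrichments of 4.24 (percentile 67.8) and 4.48 (percentile 60.5). Replicate 1 split the stretch up to 76007600 into peaks of 1 kb and 4.6 kb, where replicate 2 had 1 peak of 6.8 kb up to 76008200.

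The right part of the domain held fewer pieces. A 1.6 kb peak from 76010201 to 76011800 was present in replicate 1 and absent from replicate 2, so the longest gap between pieces was 6.2 kb in replicate 1 and 9.6 kb in replicate 2. Both replicates had peaks from about this gap's end, starting at 76018001 and 76017801, and again from 76024401 and 76024601. The last of these ended at 76030600 in replicate 1 and 76030200 in replicate 2, short of the G1E border at 76036000 and 76036200. The pooled G1E-ER4+E2 list differed here, with a last piece that reached 76036200 at an enrichment of 1.94 (percentile 20.2).

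The right peak group was nearly the same length in both G1E replicates, 13.4 kb and 13.2 kb, and shorter in G1E-ER4+E2, 4.6 kb and 3.2 kb. The means were 13.3 ± 0.141 kb and 3.9 ± 0.99 kb (SD, n = 2 each), a 3.41-fold difference that exceeds the spread between replicates. Its left side was called in all 4 replicates. In G1E-ER4+E2 the peak ran from 76042201 to 76046800 (enrichment 2.62, percentile 40.3) and from 76042601 to 76045800 (3.12, percentile 41.4). The stretch from 76049201 to 76054800, covered in both G1E replicates, was covered in neither G1E-ER4+E2 replicate.

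**Figure D2:**
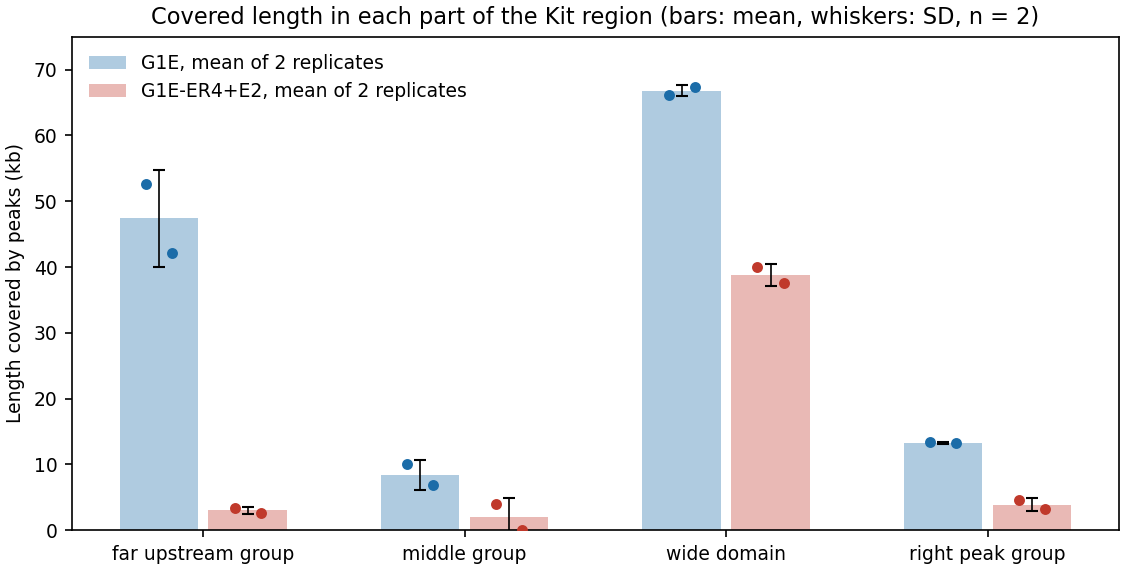
Length covered by peaks (kb) in the 4 parts of the *Kit* region, cut at its borders, with the mean (bars), SD (whiskers, n = 2) and each replicate (points). In every part both G1E replicates lie above both G1E-ER4+E2 replicates, and the means run from 47.4 to 3 kb in the far upstream group and from 66.8 to 38.8 kb in the wide domain.

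At the resolution of the 200 bp grid on which the peaks were called, 120.4 kb of the region were covered in both G1E replicates. Of this, 65.6 kb (54.5%) were covered in neither G1E-ER4+E2 replicate (lost), 40.6 kb (33.7%) in both (kept) and 14.2 kb (11.8%) in 1 of them. Over the genome 24.0% of the windows covered in both G1E replicates were lost and 67.0% were kept, so the lost share of the region was above that of all such windows and the kept share below it. Of the 40.6 kb of the region covered in both G1E-ER4+E2 replicates, 0 kb were covered in neither G1E replicate, against 39.9% of all such windows over the genome. The peaks of each list were also kept from the highest enrichment down until all lists covered the same length. The kept share of the region was then 16.6%, and the share over the genome at this setting is not given here. Only the wide domain then had G1E-ER4+E2 peaks, over 26.8 kb in replicate 1 and 21.8 kb in replicate 2. The lowest enrichment kept was 2.84 and 3.31 in these replicates, but 1.2 in G1E replicate 2. The dropped G1E-ER4+E2 peaks of the far upstream and right peak groups lay close below, at 2.61 and 2.62 in replicate 1 and 2.72 and 3.12 in replicate 2.

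The parts differed in what they kept. The lost share was 89.8% in the far upstream group, 62.3% in the right peak group, 41.2% in the middle group and 35.6% in the wide domain. The kept share was 6.82%, 26.2%, 0% and 52.9% in the same order. The place of the middle group rests on 1 library. Its kept share was 58.8% without G1E-ER4+E2 replicate 2, and its lost share was 100% without G1E-ER4+E2 replicate 1. In the other 3 parts no share moved by more than 1.5 times when 1 replicate was left out. Kept sequence formed 10 stretches of 0.8 to 6.2 kb, of which 8 lay in the wide domain. The longest ran from 75972401 to 75978600, in the leftmost piece of the domain. The others in the domain of at least 4.6 kb ran from 75982401 to 75987200, from 75990801 to 75996000, from 76003001 to 76007600, from 76018001 to 76022600 and from 76024601 to 76030200. The kept stretch of the far upstream group ran from 75855201 to 75857600 and that of the right peak group from 76042601 to 76045800. Lost sequence formed 20 stretches, the longest of 8.8 kb from 75857801 to 75866600 and from 75871401 to 75880200, on the right of the kept upstream stretch. The longest lost stretches within the wide domain were 6 kb, from 76011801 to 76017800, and 5.4 kb at its right end, from 76030601 to 76036000.

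In the region, 79.5% of the bp covered in either G1E replicate were covered in both, and 74.1% for G1E-ER4+E2. Over the genome these shares were 70.6% and 71.2%.

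Within each list, the widest peaks of the G1E region also had its highest enrichments, and most of its other peaks were weak. The median percentile of the region's peaks was 16.4 and 16.8 in G1E replicates 1 and 2, with a highest value of 73.1 and 89.8. In G1E-ER4+E2 it was 46.1 and 45.2, with a highest value of 70.3 and 67.5. Above the median enrichment of the list were 2 of 10 peaks in each G1E replicate, 6 of 12 in G1E-ER4+E2 replicate 1 and 4 of 9 in replicate 2. The widest peak of the region fell from 66.2 and 67.4 kb in the G1E replicates to 7.6 and 6.8 kb in the G1E-ER4+E2 replicates. In the pooled lists it was 69.6 kb in G1E and 17 kb in G1E-ER4+E2. These ranks follow the composition of each list. The median enrichment of all peaks was 6.69 and 7.76 in the G1E replicates and 2.98 and 3.59 in the G1E-ER4+E2 replicates.

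**Figure D3:**
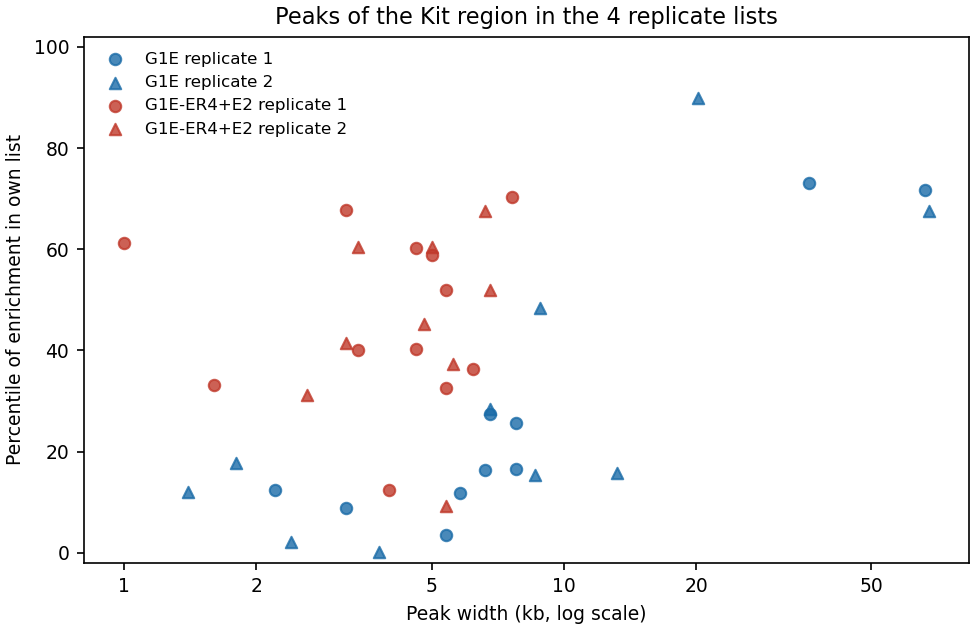
Width (kb, log scale) and percentile of enrichment in the own list for each peak of the *Kit* region in the 4 replicate lists. The G1E peaks of at least 20 kb reach percentiles of 67.5 to 89.8 and the others, up to 13.2 kb wide, lie at percentile 48.3 or lower, whereas all G1E-ER4+E2 peaks are at most 7.6 kb wide and reach percentile 70.3.

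Losses of this kind were set beside those of all peaks. Of the 13 pooled G1E peaks of the region, 8 had no bp in a pooled G1E-ER4+E2 peak, where 29.7% of all pooled G1E peaks had none. These 8 were neighbours in the far upstream group, and 7 of them were weak, at percentiles 1.76 to 20.1. The background was not matched for enrichment or for such grouping. Less than 50% of the length was covered for 11 of the 13, against 35.7% of all peaks. The 2 peaks of at least 20 kb went different ways. The far upstream peak was 18.1% covered, under the 50% that all but 11.3% of the 858 pooled G1E peaks of this width reached, and 4.55% of those peaks were covered less. The wide domain was 74.1% covered, with 25.2% of the wide peaks covered less and a median of 92% for them. It was overlapped by 6 separate pooled G1E-ER4+E2 peaks. Of the 858 wide peaks 7 (0.816%), the domain included, were overlapped by 6 or more. The number 6 is that of the domain itself, so this share is a description only. All 10 pooled G1E-ER4+E2 peaks of the region touched a pooled G1E peak, against 59.7% of all pooled G1E-ER4+E2 peaks, and 9 lay wholly within pooled G1E peaks, against 18.6%.

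The whole region was set beside 5875 tiles of 250 kb that have a peak in any replicate list. Both G1E-ER4+E2 replicates covered less than both G1E replicates in 31.1% of the tiles, and more in 45.8%. The median tile changed by 1.1 kb. The G1E-ER4+E2 lists covered more of the genome in all, 162.9 and 160.7 Mb in the replicates against 126.3 and 113.1 Mb in G1E, so the fall at *Kit* ran against the change in total covered length. A fall of mean covered length at least as large as the difference of -88.2 kb found here was found in 0.0511% of the tiles (3 tiles). Of these 3, the one from 76000001 to 76250000 of chromosome 5 fell by 121.5 kb and shares 80 kb with the region, the rest of it lying in the sequence on the right, whose own covered length also fell. In G1E the region was covered more than 99.7% of the tiles, and in G1E-ER4+E2 more than 77.5% of them.

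**Figure D4:**
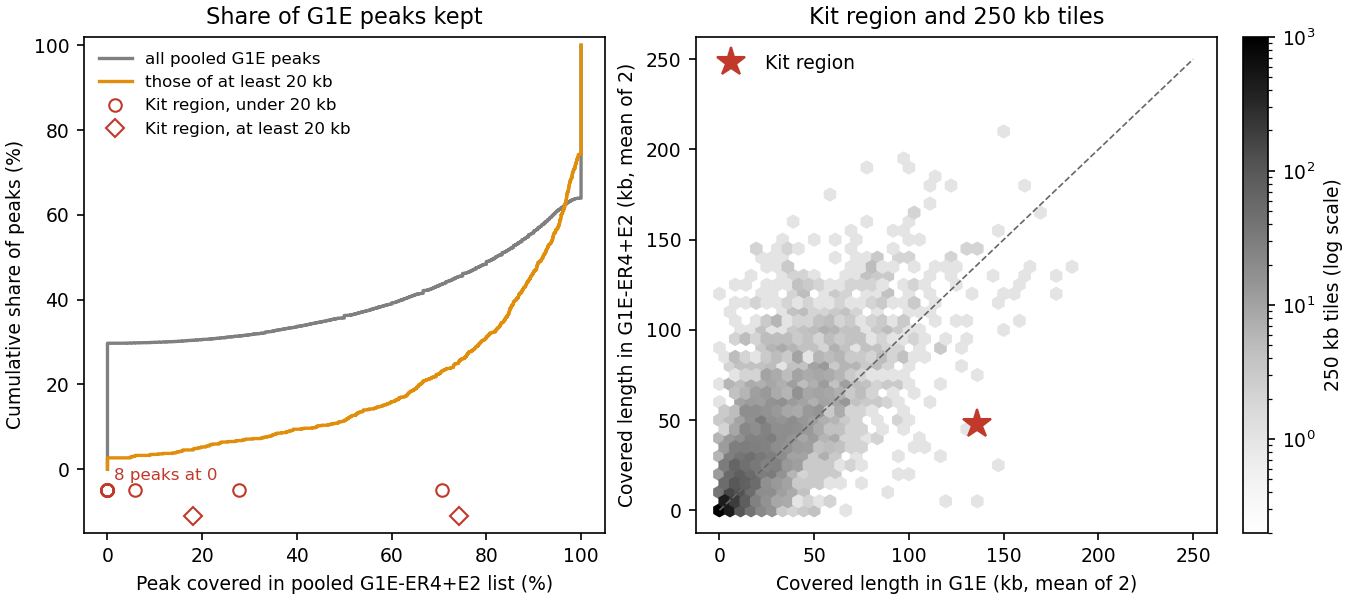
Left, cumulative share (%) of pooled G1E peaks by the percent of their length covered in the pooled G1E-ER4+E2 list, for all peaks and those of at least 20 kb, with the peaks of the *Kit* region as symbols below the curves (their height has no meaning); 8 symbols lie at 0. Right, mean covered length (kb) in G1E and G1E-ER4+E2 of 250 kb tiles (shading, log scale of the number of tiles; dashed line, equal length), with the *Kit* region as a star at 135.9 and 47.7 kb, below the line.

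No read counts are given beside the peaks and the depth is therefore unknown, and a stretch without a peak was not called at these thresholds, which does not show that it lacked acetylation. Whether the differences in enrichment and total length between the lists of the cell lines have a part in the fall was not tested. The fall was -103.3 kb when all lists were brought to the same covered length, which does not test this. That cut left G1E replicate 2 whole at 23451 peaks and kept 18566 of 21557 in G1E replicate 1. In G1E-ER4+E2 it kept 15541 of 29087 peaks in replicate 1 and 14641 of 26740 in replicate 2, so it mainly removed G1E-ER4+E2 peaks.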

How the data were processed

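H3K27ac ChIP-seq was done by the authors in G1E and G1E-ER4+E2 cells with 2 replicates each, assigned to groups by their labels. The submitters' processing notes name bcl2fastq 1.8.4, Bowtie 1.0.0, SICER 1.1 and mm9, without their roles. The control, filters and way of pooling are not given in the sources used here. The deposited lists give each peak a fold enrichment (a linear ratio) together with its p-value and q-value, and all q-values were below 0.01. All peak borders lay on a 200 bp grid. Depth is unknown, and no interval for it was computed.

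Here, peaks were placed on that grid, and covered length in the region was compared with two-sided exact permutation tests over the 4 replicate lists. Lost and kept windows, pooled peaks and 250 kb tiles were counted over the genome as background. Positions are printed counting from 1. The code was tested on simulated peaks. The locus and the tests were chosen with earlier results of these data known. The 2 kb joining distance, the 20 kb width and the number of 6 pieces were set after the peaks were seen. By the rule for named items, every peak of the region and the nearest one outside on each side could be named, and no gene list was used because no mm9 annotation was at hand. Alternatives were the pooled lists, stricter enrichment or q-values, equal covered length, scaling by the list total, shorter borders, the replicate number as a block, each replicate left out, and for the background a 50% overlap and shifted tiles. Python 3.11.15, NumPy 2.4.6, SciPy 1.17.1 and Matplotlib 3.10.9 were used.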

Additional observations from a re-analysis of the deposited data

How the results depend on the processing

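The difference in covered length of the *Kit* region kept its direction under every alternative run, from -70.6 kb with peaks from the median enrichment of the list upward to -103.3 kb at equal covered length, and from -81.9 to -94.5 kb when 1 replicate was left out. Scaled by the total of each list it was -0.841 kb per Mb. With the replicate number as a block it was -88.2 kb (exact sign-flip p = 0.5, the smallest that 2 pairs allow). Over 5875 tiles the deviations of same-numbered replicates had a correlation of 0.333, but the labels give these samples only a shared number. The lost share was 59.05% with the pooled lists, 66.4% with peaks from the median enrichment upward, 75.5% at equal covered length and 51.25% with the region shortened by 20 kb at each end, and 56.8% to 63.95% without 1 replicate. In the same order the kept share was 40.95%, 22.7%, 16.6% and 36.1%, and 28.6% to 43.2% without 1 replicate. The gained length was 0.8 kb with the pooled lists and 0 kb under the other alternatives. A q-value of at most 0.001 moved none of these values of the region. The share of pooled G1E peaks lost was 35.7% when less than 50% covered counted as lost, and the share of tiles with loss was 31.0% with shifted tiles. Without 1 G1E-ER4+E2 replicate, the lost and kept shares can by definition only rise or stay. The 50% rule can likewise only add to the pooled peaks counted as lost. The cause of the other shifts was not tested. With 2 replicates per group, no p under 0.333 could be obtained.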

Other observations

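The sequence next to the *Kit* region, part of which lies in the tiles described above, had values of the same direction. The 250 kb on the right, toward *Kdr*, were covered over 118.4 and 104.4 kb in the G1E replicates and over 10.4 and 8 kb in the G1E-ER4+E2 replicates, a difference of -102.2 kb. The 250 kb on the left, toward *Pdgfra*, were covered over 49.6 and 43.6 kb in G1E and over 16 and 15.4 kb in G1E-ER4+E2, a difference of -30.9 kb. In both neighbours the groups did not overlap, and no test was run. Non-overlap with less covered in G1E-ER4+E2 was found in 31.1% of the 250 kb tiles, and with more covered in 45.8%. The fall in covered length was thus larger beyond the right border than within the region. In G1E the nearest peaks outside were 9.2 and 9.8 kb from the left border and 2 and 45 kb from the right border. In G1E-ER4+E2 they were 51.6 and 52.2 kb from the left border and 77.2 kb from the right border in both replicates, so the peaks of the region stood apart from any others there. These values were chosen after the neighbouring tiles had been seen.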
